A study of Rattus norvegicus with 6 samples.

Results

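The transcripts described here are those of the long non-coding RNA (lncRNA) table whose class code is "=", the code for a transcript that matches a gene model of the reference annotation. They were chosen by that code, with microRNA names in the gene name column to be left out, but 0 of them carried such a name. All 230 were therefore kept, of 2455 transcripts with values. RNA was sequenced from 6 tissues of the inbred Brown Norway (BN) rat strain, from males at 6 weeks of age, and the labels name no treatment. The tissues, with 1 sample each, were the left ventricle of the heart, adrenal gland (labelled adrenal glandin), liver, hypothalamus, outer medulla, which is part of the kidney, and cortex, for which the label gives no organ. The deposited table gave 2 columns of FPKM per tissue, called column 1 and column 2 here, where FPKM is a fragment count scaled by transcript length and library total. Whether the columns came from separate animals is not stated, so each p-value reflects the difference between columns alone, and that difference may be technical. In such bulk samples, fewer cells of a type and less RNA per cell cannot be told apart. The code of the hypothalamus columns, B, was matched to that label by elimination. Coordinates are on the rn5 build.

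A lncRNA is a transcript that is not translated into a protein, and many lncRNAs are made in few tissues. Genome annotations also hold short predicted gene models about which little is known, among them genes without introns and copies of other genes. An intron-free copy can arise when a messenger RNA is reverse transcribed back into the genome. A model made of coding sequence only has a length that is a whole number of codons, so its length in bases divides by 3, while a model that includes untranslated ends need not.

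The models of the 230 reference-matching transcripts were short, and their lengths were nearly all multiples of 3. The median length was 486 bases (quartiles 384.75 and 859.75, range 177 to 3663), against 2025 bases for the other 2225 transcripts (quartiles 1010 and 4312). Of the 230, 124 (53.9%) were under 500 bases, against 141 of the others (6.34%). The length was a multiple of 3 in 217 (94.3%), against 736 of the others (33.1%), and the share was 38.6% in class j (a shared splice junction), 31.0% in class o (another overlap), 33.9% in class x (an exon on the opposite strand) and 33.0% in transcripts with no reference gene. Most class = lengths may therefore be coding lengths, but no reading frame was examined, and 13 lengths were not multiples of 3. The name noncoding rests on the authors' selection, for which the sources used here give no criteria. The transcripts are called reference-matching below.

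Many of these models had no room for an intron. In 132 of 230 (57.4%) the interval of the locus was exactly as long as the transcript, so the model is 1 block, and 125 of those also had a length that is a multiple of 3. None of the 2225 other transcripts had an interval equal to its length. The equality of end minus start and length also shows that starts in the table count from 0, so starts are printed here 1 base higher. In the other 98 the interval was longer than the transcript: by 5 bases in 12, by 1 to 60 bases in 19 including those, and by more than 1000 bases in 73. The 1-block models had a median of 480 bases (183 to 2397), and the other 98 a median of 517.5 bases (177 to 3663). All 230 had gene identifiers of their own, 1 shared its identifier with a further transcript of the table, and 17 shared their interval with other transcripts. They lay on 20 numbered chromosomes and X, from 24 on chromosome 1 to 4 on chromosome 20, and made up between 6.37% of the table on chromosome 2 and 17.8% on chromosome 19.

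**Figure D1:**
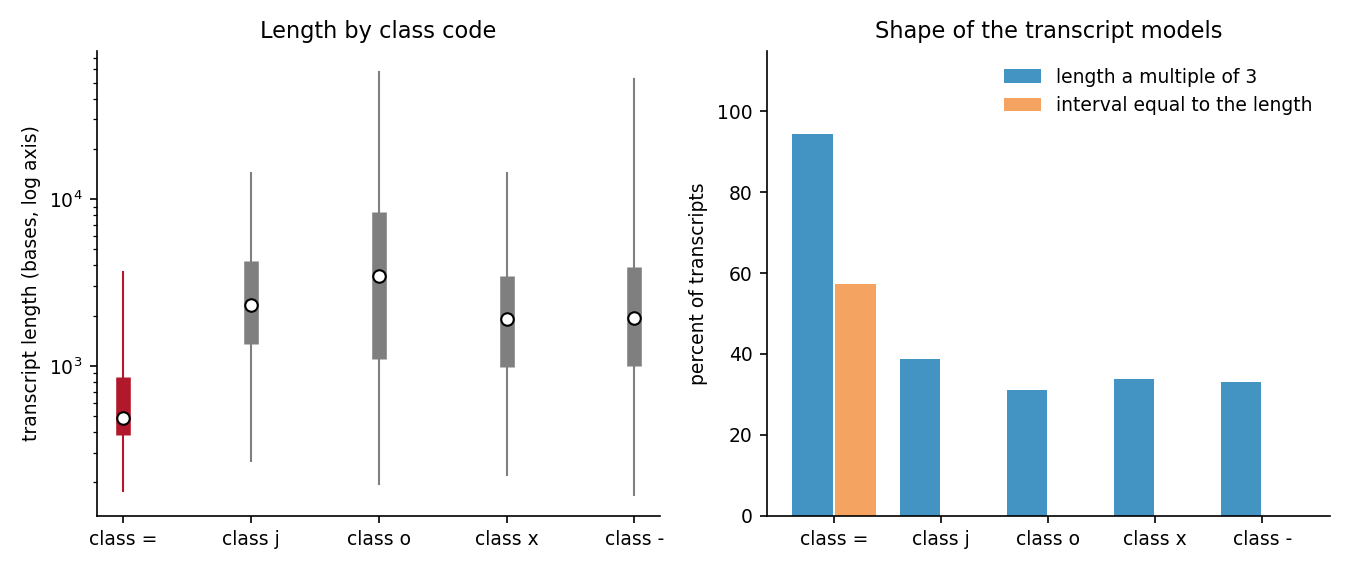
Left, transcript length in bases on a log axis by class code (- for no reference gene), with the range as a thin line, the quartiles as a thick line and the median as a circle. Right, percent of transcripts whose length is a multiple of 3 (blue) and whose locus interval equals the length (orange); class = reaches 94.3 and 57.4%, while the other classes lie between 31.0 and 38.6% and at 0%.

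The names say little about function. An Ensembl gene identifier was the only name in 225, 0 of which matched the RefSeq gene table at hand, and 5 carried a symbol. None was on the list of known noncoding RNA genes such as H19, Meg3 and the Snhg family, while 6 of the other transcripts were. Of the 5 symbols, Slc25a6 matched RefSeq (GRCr8), which lists it as protein-coding together with 2 pseudogenes named after it. In human, SLC25A6 encodes a carrier that exchanges ADP and ATP across the inner mitochondrial membrane. The rat transcript TCONS_00049143 (rn5 chromosome 18, 70099132 to 70100031, 900 bases in 1 block) was low in all tissues, with 0.217 and 0.339 FPKM in liver and at most 0.153 elsewhere. Whether this transcript is a copy of that gene was not examined. Any reads shared with the gene or its pseudogenes would make its values uncertain, which was not tested.

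The other 4 symbols are RGD numbers without a match. RGD1559938 (TCONS_00072517, chromosome 3, 156308253 to 156417597) had an FPKM of 1.13 and 1.24 for outer medulla, 1.39 and 1.26 for cortex, 0.859 and 0.269 for liver, 0 and 0.817 for left ventricle, 0.376 and 0 for adrenal gland and 0 for both hypothalamus columns. Both outer medulla columns lay just below both cortex columns, and its difference of -0.15 (log2, outer medulla minus cortex) missed the threshold (adjusted p = 0.949, limma). RGD1566241 (TCONS_00038153) had 0.665 and 0.522 in adrenal gland, and 0.14 in hypothalamus column 2 was its only other value above 0. Its adrenal gland values correspond to about 1.92 and 1.98 sequenced fragments, and its hypothalamus value to about 0.996. RGD1561766 (TCONS_00099368) was above 0 in adrenal gland column 1 only, at 0.209, and RGD1563713 (TCONS_00109949) in liver column 1 only, at 0.167. Each of the last 2 values corresponds to about 1 sequenced fragment.

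What an FPKM is worth in fragments could be read from the table. Low values tended to fall on steps: by column, between 69.2 and 83.3% of those used were at most 0.15 from a whole fragment. Under an assumed mean fragment of 140 bases, the steps implied 3942000 fragments for liver column 2, the shallowest, 32630000 for hypothalamus column 2, the deepest, and 10350000 to 26570000 for the other columns. Among reference-matching transcripts of 300 up to 500 bases, which were not used to find the steps, 97.4% of 229 low values were that close to a whole fragment. For the 29 transcripts under 300 bases the share was 61.4%, so fragments are not read from those. For a length of 486 bases, a count of 0 allows up to 3 fragments, which is an FPKM of 2.19 for liver column 2 but 0.265 for hypothalamus column 2. Those limits cover counting error only, and a listed 0 can also be a failed estimate.

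Most of the reference-matching transcripts were at or near 0 in all 6 tissues. A tissue mean of at least 0.5 FPKM over the 2 columns, called detected here, was reached in at least 1 tissue by 67 of 230 (29.1%), against 1745 of the 2225 others (78.4%). Another 113 were above 0 but under 0.5 in every tissue, and 50 (21.7%) were listed at 0 in all 12 columns, against 13 of the others (0.584%). Of the 201 that were 300 bases or longer, 91 had fewer than 3 implied fragments over all 12 columns together, 70 had 10 or more and 18 had 100 or more. Levels above an FPKM of 10 were rare, in 4 of 230 (1.74%) against 133 of the others (5.98%).

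The share detected in any tissue differed little between length classes among these transcripts, while the share detected in all 6 was higher in the longer classes. It was 29.0% of 124 under 500 bases, 27.6% of 58 at 500 up to 1000 bases and 31.3% of 48 at 1000 bases or more. Detection in all 6 tissues was seen in 1.61, 8.62 and 10.4% of the same classes, which are 2, 5 and 5 transcripts. For the others that share was 18.4, 3.68 and 5.31%, and so highest in the shortest class. Among the other transcripts all 141 under 500 bases were detected, and 91.2% of 408 and 73.5% of 1676 in the longer classes, and the lowest highest-tissue mean among those under 500 bases was 0.564 FPKM. How the authors selected the 2 kinds of transcript is not given, and the part of that selection in these shares was not tested. Transcripts of 1 block were detected in 27 of 132 cases (20.5%), and those with a longer interval in 40 of 98 (40.8%). Spearman's rho between length and highest-tissue mean was 0.20, and between length and number of tissues 0.31, over the 67 detected ones, which share libraries and depth.

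**Figure D2:**
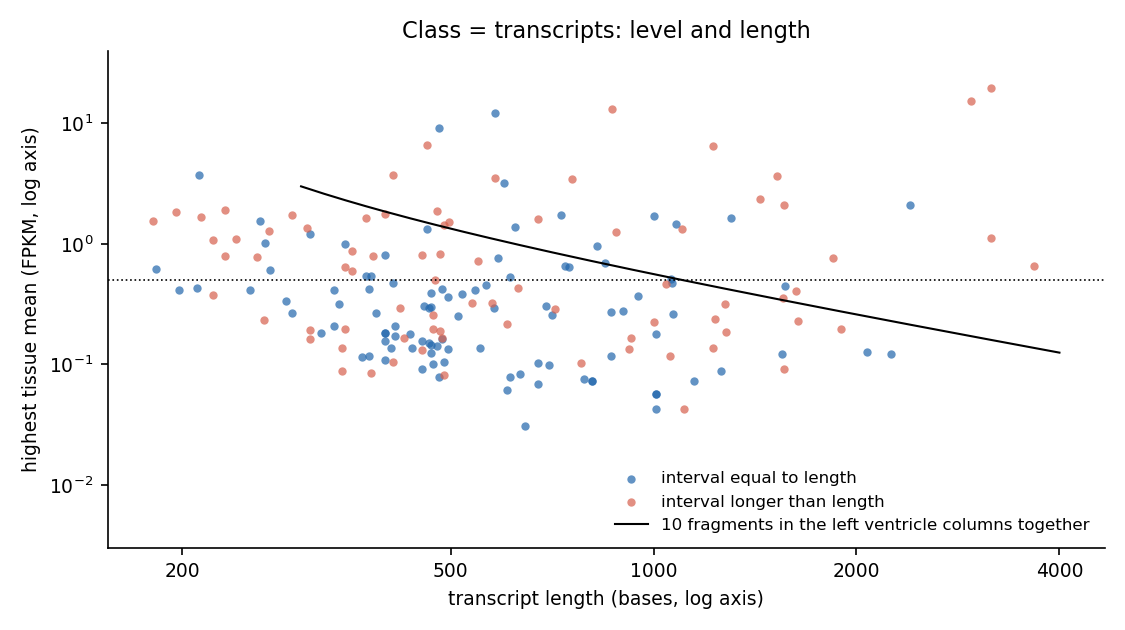
Highest tissue mean (FPKM, log axis) against transcript length (bases, log axis) for class = transcripts above 0, in blue where the interval equals the length and in red where it is longer. The dotted line is an FPKM of 0.5. The curve, drawn from 300 bases, is the FPKM that 10 fragments in the left ventricle columns together would give. Several transcripts above the dotted line lie below the curve. Points below it can still hold 10 fragments in a deeper tissue, as TCONS_00094477 does with 12.7 in hypothalamus.

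Among the tissues, liver had the most detected members and hypothalamus the fewest. The counts were 41 for liver (17.8% of 230), 40 for adrenal gland (17.4%), 39 for left ventricle (17.0%), 37 for outer medulla (16.1%), 34 for cortex (14.8%) and 18 for hypothalamus (7.83%). Shares of the other transcripts were 28.9% for liver, 27.6% for adrenal gland, 25.8% for left ventricle, 32.7% for outer medulla, 34.4% for cortex and 21.4% for hypothalamus. The first 5 counts differ by less than the loss seen when both columns must reach 0.5, which left 27, 30, 24, 24 and 24 in that tissue order. Rescaling the columns to a common median turned the order: the counts were then 41 for liver, 39 for left ventricle, 39 for adrenal gland, 32 for hypothalamus, 31 for cortex and 29 for outer medulla.

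Fragments gave another order than FPKM. Among the transcripts of 300 bases or more, those with 10 or more implied fragments in a tissue numbered 30 in adrenal gland, 29 in cortex, 25 in hypothalamus, 24 in outer medulla, 21 in liver and 21 in left ventricle, and hypothalamus had the deepest columns. Of the 209 detections over the 6 tissues, 23 were listed at 0 in 1 of the 2 columns. Transcripts of 300 bases or more made 173 of the detections, and 52 of these rested on fewer than 10 implied fragments. Agreement between the columns was moderate: over the 67 transcripts detected anywhere, Pearson's r of log2(FPKM + 0.1) was 0.79 for hypothalamus, 0.70 for adrenal gland, 0.66 for cortex, 0.63 for outer medulla, 0.62 for liver and 0.58 for left ventricle. Transcripts are not replicates, so these carry no p. The reference-matching transcripts held 1.43% (hypothalamus) to 3.06% (left ventricle) of the summed FPKM of the table.

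**Figure D3:**
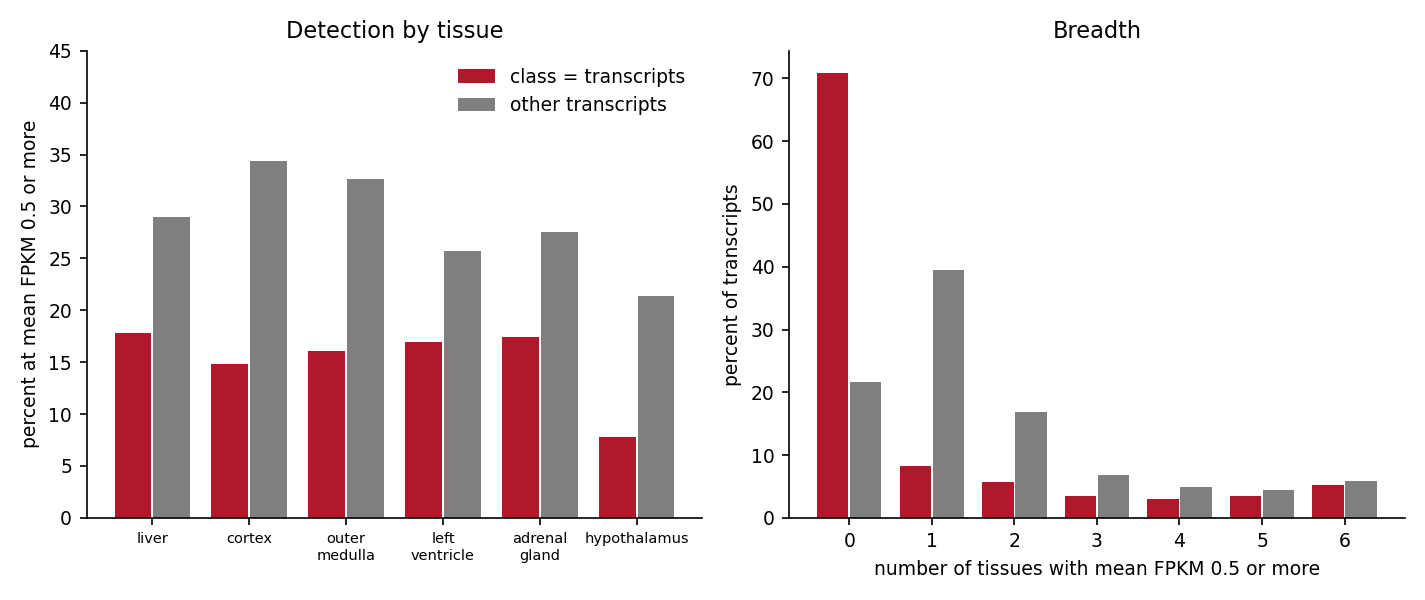
Left, percent of transcripts detected (tissue mean of at least 0.5 FPKM) by tissue, for class = (red, n = 230) and all other transcripts (grey, n = 2225). Right, percent of transcripts by the number of tissues in which they reach that level; 70.9% of class = and 21.6% of the others reach it in none.

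Of the 67 detected transcripts, 19 (28.4%) were detected in 1 tissue, 13 in 2, 8 in 3, 7 in 4, 8 in 5 and 12 (17.9%) in all 6. Of the 1745 detected others, 880 (50.4%) were detected in 1 tissue and 130 (7.45%) in all 6. As shares of all 230 and all 2225 others, detection in all 6 was nearly equal, at 5.22 against 5.84%. Detection in 1 tissue was 8.26 against 39.6%. Liver was the highest tissue in 20 of the 67, left ventricle in 14, adrenal gland in 14, outer medulla in 10, cortex in 7 and hypothalamus in 2. As shares of the 67 against the 1745 detected others, these were 29.9 against 21.1% for liver, 20.9 against 14.6% for left ventricle and 20.9 against 18.4% for adrenal gland. They were 14.9 against 13.7% for outer medulla, 10.4 against 19.5% for cortex and 2.99 against 12.7% for hypothalamus, the tissue whose columns rescaling shifted most. Liver column 2 was the shallowest. Of the detections, 8 of 41 in liver and 7 of 39 in left ventricle were listed at 0 in 1 column, against 0 to 3 in each other tissue. Any part of this in the highest-tissue counts was not tested. A mean of 1 or more in at least 1 tissue was reached by 44 of 230, so the following values leave out 186. Their tissue specificity index tau, which runs from 0 (even) to 1 (a single tissue) and was computed on log2(FPKM + 1), had a median of 0.57 (quartiles 0.41 and 0.70), against 0.83 (0.63 and 0.94) for 1225 others. Computed on FPKM the medians were 0.68 and 0.89, and on log2(FPKM + 0.1) with values under 0 set to 0 they were 0.91 and 1. The lower median of the reference-matching transcripts held on all 3 scales. Just under the minimum of 1 lay TCONS_00031727 (0.817), TCONS_00050236 (0.876) and TCONS_00065644 (0.967), and just over it TCONS_00018833 (1.01), TCONS_00112720 (1.01) and TCONS_00059634 (1.07).

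Broad expression was seen in 6 reference-matching transcripts, which reached a mean of 1 FPKM everywhere (2.61% of 230, against 53 or 2.38% of the others). The most abundant was TCONS_00021906 (ENSRNOG00000047539, chromosome 11, 31873797 to 31877080, 3168 bases). Its FPKM was 21.2 and 18.3 for liver, 12.3 and 12.2 for cortex, 14.4 and 14.8 for outer medulla, 15.2 and 14.9 for left ventricle, 22.0 and 17.4 for adrenal gland and 10.3 and 10.3 for hypothalamus. The highest tissue mean was 1.92-fold the lowest. Liver and adrenal gland overlapped, and hypothalamus was below every other column. By implied fragments it alone held 48.1% of those assigned to reference-matching transcripts of 300 bases or more.

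TCONS_00106149 (ENSRNOG00000048566, chromosome 9, 7065828 to 7067637, 867 bases) was the next. Its FPKM was 11.2 and 15.3 for liver, 5.82 and 7.66 for cortex, 7.13 and 8.79 for outer medulla, 6.98 and 7.12 for left ventricle, 8.73 and 8.46 for adrenal gland and 4.88 and 5.31 for hypothalamus. Liver did not overlap any other tissue, but its difference from adrenal gland, the next, was 0.60 on the log2(FPKM + 0.1) scale (SE 0.24, adjusted p = 0.0796, limma) and missed the threshold.

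TCONS_00018113 (ENSRNOG00000017586, chromosome 10, 14348352 to 14348831) is a 1-block model of 480 bases. Its FPKM was 11.6 and 6.80 for liver, 5.05 and 6.26 for cortex, 2.64 and 2.98 for outer medulla, 6.87 and 5.60 for left ventricle, 7.73 and 4.85 for adrenal gland and 1.49 and 1.91 for hypothalamus. Hypothalamus and outer medulla were below the other 4 tissues, and left ventricle and adrenal gland each overlapped liver and cortex. TCONS_00109314 (ENSRNOG00000016444, chromosome 9, 49424769 to 49511911, 462 bases) was more even, between 3.07 in hypothalamus column 2 and 8.16 in left ventricle column 1. TCONS_00065030 (ENSRNOG00000047465, chromosome 3, 10794216 to 10796389, 1525 bases) ran from 1.30 in liver column 2 to 4.28 in left ventricle column 2. Its length is no multiple of 3.

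The sixth, TCONS_00031452 (ENSRNOG00000004407, chromosome 13, 94383718 to 94501245, 1224 bases), was looked at after its values were seen. Its FPKM was 1.07 and 4.52 for liver, 0.644 and 3.97 for cortex, 0.898 and 3.11 for outer medulla, 1.62 and 11.3 for left ventricle, 0.615 and 3.05 for adrenal gland and 0.401 and 2.27 for hypothalamus. Column 2 was higher than column 1 in all 6 tissues. Implied fragments were 8.85 to 18.2 in the column 1 libraries and 19.3 to 127 in the column 2 libraries.

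**Figure D4:**
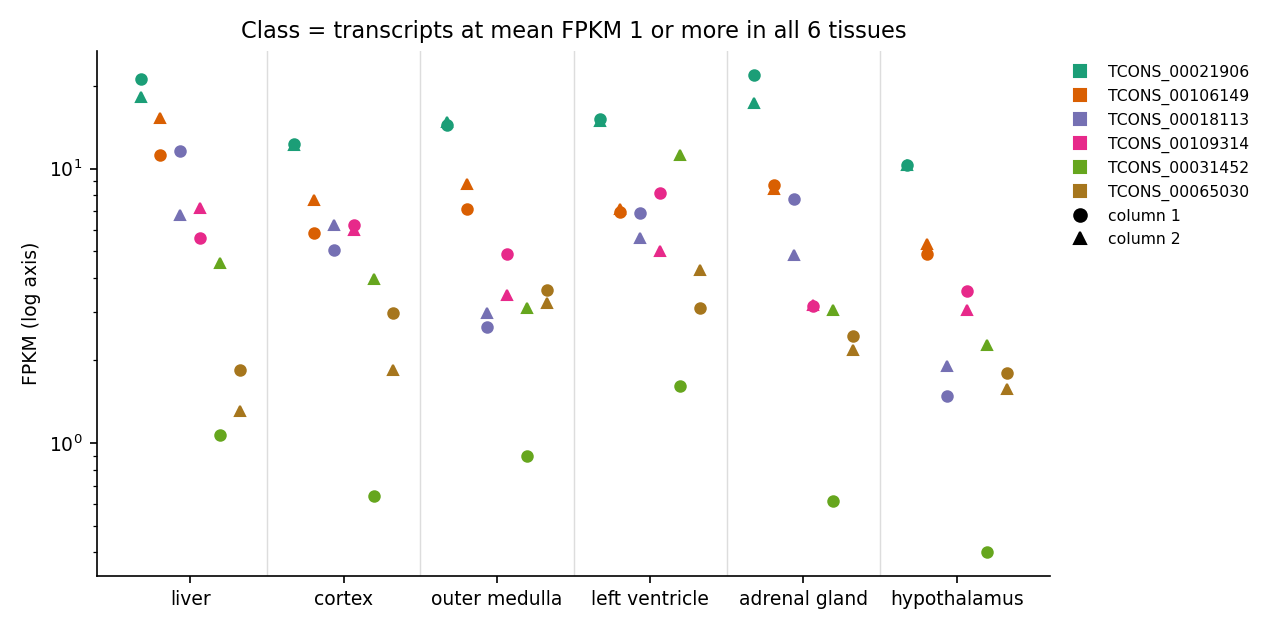
FPKM on a log axis in each tissue for the 6 class = transcripts at a mean of 1 or more everywhere, 1 colour per transcript, circles for column 1 and triangles for column 2. TCONS_00021906 lies on top in every tissue, between 10.3 and 22.0, while the columns of TCONS_00031452 stay apart in every tissue.

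A consistent order of the columns recurred in a few other transcripts, also noticed after the values were seen. Of the 26 reference-matching transcripts above 0 in all 12 columns, 4 (15.4%) had column 2 above column 1 in all 6 tissues and 2 (7.69%) had the reverse, against 8 (1.66%) and 14 (2.90%) of 482 others. TCONS_00037871 (ENSRNOG00000033030, chromosome 15, 22499396 to 22499977, 582 bases in 1 block) had an FPKM of 1.86 and 22.7 for liver, 0.390 and 1.66 for cortex, 0.894 and 2.91 for outer medulla, 0.882 and 3.92 for left ventricle, 1.82 and 2.83 for adrenal gland and 0.327 and 1.62 for hypothalamus. It was among the 3 highest in liver by its mean, which rests on column 2, and did not pass the test for liver (adjusted p = 0.415, limma). TCONS_00100492 (ENSRNOG00000009373, chromosome 8, 33096207 to 33097816, 1563 bases) had 1.45 and 2.72 for liver, 0.480 and 1.25 for left ventricle, and 0.441 or less in the other columns. The lowest of the 4 was TCONS_00035793, between 0.0768 and 0.402. The reverse order was seen in TCONS_00098573 and TCONS_00037720. What the column numbers stand for is not given.

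A level higher in 1 tissue than in each of the other 5, called restricted here, was found for 4 reference-matching transcripts. That count depended on the settings. Restricted does not mean absent elsewhere: TCONS_00026386 and TCONS_00108049 were detected in all 6 tissues. limma on log2(FPKM + 0.1), with the highest tissue compared with each of the other 5, called 580 of 1269 transcripts of the whole table (45.7%) restricted at a Benjamini-Hochberg adjusted p below 0.05. Of the 44 reference-matching ones tested 4 were called and 9 had an unadjusted p below 0.05. With a pseudocount of 1 the count was 9 of the same 44. With no FPKM minimum it was 11, but more than 44 were then tested. It also moved when 1 column was left out. The 45.7% belongs to the main fit, and the shares called in the other settings are not given here. The 4 were 2 in left ventricle (8.04% of all tested were called there), 1 in adrenal gland (9.3%), 1 in liver (13.3%), and 0 in cortex (6.46%), outer medulla (2.84%) and hypothalamus (5.75%). The log2 difference between the highest and the next tissue had a median of 0.63 in the 44, against 1.50 over all 1269. Because the 44 passed a minimum in their highest tissue, these values describe them and not all 230. By size alone, with no test, 2 were 5-fold above the next tissue on the mean (35.9% of all tested) and 2 in both columns (20.4%).

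In left ventricle, the heart chamber that pumps blood into the aorta, the more abundant of the 2 was TCONS_00026386 (ENSRNOG00000001347, chromosome 12, 42400868 to 42486205, 2955 bases). Its FPKM was 16.4 and 14.1 for left ventricle, against 4.50 and 4.43 for outer medulla, 2.62 and 2.78 for cortex, 1.0 and 1.19 for liver, 1.40 and 1.16 for adrenal gland and 0.761 and 0.62 for hypothalamus. Left ventricle lay above every other column, outer medulla above cortex, and cortex above the remaining 3 tissues. Its log2 difference from outer medulla was 1.75 (SE 0.24, adjusted p = 5.1e-04, limma), and it rested on 479 and 412 implied fragments in the left ventricle columns.

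TCONS_00037942 (ENSRNOG00000029521, chromosome 15, 24201236 to 24302722, 411 bases) had 4.67 and 2.78 FPKM in left ventricle. Of the 10 columns of other tissues 8 were listed at 0, with 0.21 in adrenal gland column 2 and 0.133 in hypothalamus column 1. Those 2 values correspond to 1 fragment each, and the left ventricle values to 13.1 and 7.83. The log2 difference from adrenal gland was 4.40 (SE 0.58, adjusted p = 3.9e-04, limma). It shares its interval with 2 other transcripts of the table, and any part of that in its level was not tested.

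In the adrenal gland, which makes steroid hormones and catecholamines, TCONS_00110319 (ENSRNOG00000031795, chromosome 9, 113666635 to 113669612, 1437 bases) had 2.58 and 2.12 FPKM. Hypothalamus was next, at 0.308 and 0.0974, and the other columns were at 0.127 or less, with 6 of 8 listed at 0. The log2 difference from hypothalamus was 3.11 (SE 0.50, adjusted p = 0.0012, limma). The call was lost with a pseudocount of 0.01 (adjusted p = 0.0929), where the difference was 3.67. The transcript overlapping Cyp11b3, a gene of adrenal steroid synthesis, had a mean of 52.4 FPKM in adrenal gland, against 3.55 in hypothalamus, 1.49 in left ventricle, 1.05 in liver and 0 in cortex and outer medulla.

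In liver TCONS_00108049 (ENSRNOG00000050810, chromosome 9, 109113478 to 109114088, 582 bases) had 2.97 and 4.08 FPKM. The other tissues had 0.894 and 1.34 for outer medulla, 0.83 and 1.42 for adrenal gland, 0.781 and 0.906 for cortex, 0.90 and 0.845 for hypothalamus and 0.441 and 0.871 for left ventricle. Both liver columns lay above all of these. The log2 difference from outer medulla was 1.58 (SE 0.40, adjusted p = 0.0121, limma). The call was lost without outer medulla column 1 (adjusted p = 0.073), without adrenal gland column 1 (0.0657) and with rescaled columns (0.0826), where the difference was 1.32, 1.24 and 1.05 in that order.

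**Figure D5:**
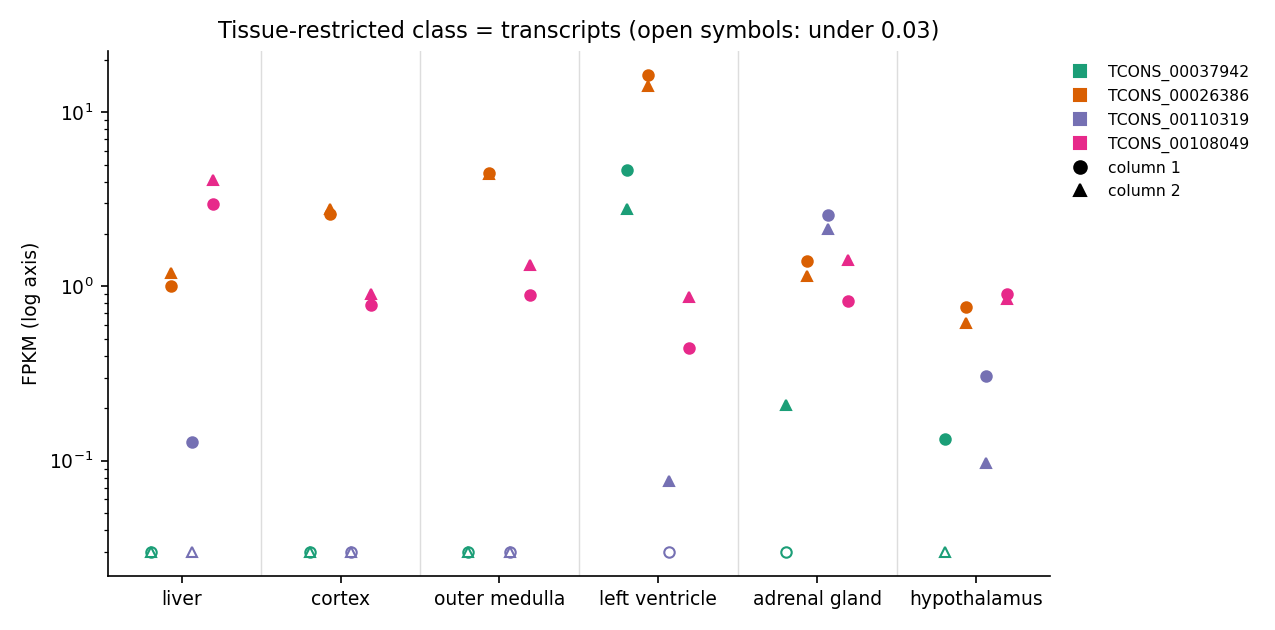
FPKM on a log axis in each tissue for the 4 tissue-restricted class = transcripts, 1 colour per transcript, circles for column 1 and triangles for column 2. Values under 0.03 are drawn as open symbols at 0.03; TCONS_00026386 is present in every tissue and highest in left ventricle, at 16.4 and 14.1, while TCONS_00037942 and TCONS_00110319 are listed at 0 in most columns outside their tissue.

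Between outer medulla and cortex, no reference-matching transcript passed the test. limma called 42 of 604 transcripts (6.95%) higher and 87 (14.4%) lower in outer medulla. Of the 25 reference-matching ones tested 0 passed, and 2 had an unadjusted p below 0.05, 1 in each direction. The count was 0 to 2 under the settings that left no single column out, and it moved in some fits that did. The 6.95 and 14.4% belong to the main fit, and the shares called in the other settings are not given here. The median log2 difference, outer medulla minus cortex, was 0.04 in the 25 and -0.15 over all 604. For TCONS_00026386 it was 0.71 (SE 0.24, adjusted p = 0.0676), with 4.50 and 4.43 FPKM in outer medulla and 2.62 and 2.78 in cortex. For TCONS_00018113 it was -0.98 (SE 0.34, adjusted p = 0.0758), with 2.64 and 2.98 in outer medulla and 5.05 and 6.26 in cortex. In both the columns did not overlap, and both passed when only the columns of these 2 tissues gave the spread (adjusted p = 0.0255 and 0.0283).

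The extremes of length were mostly low. The longest, TCONS_00106764 (ENSRNOG00000011124, chromosome 9, 35861864 to 35865531, 3663 bases), ran from 0.0721 in hypothalamus column 1 to 0.734 in liver column 2. TCONS_00037720 (ENSRNOG00000050480, chromosome 15, 11464690 to 11995727), as long as TCONS_00021906 at 3168 bases, ran from 0.535 in hypothalamus column 2 to 1.33 in adrenal gland column 1 and was detected in all tissues. The shortest, TCONS_00020574 (177 bases), was listed at 0 in all 12 columns. TCONS_00109422 (181 bases) had 3.08 and 0 in liver and 1.36 and 1.06 in adrenal gland, and TCONS_00003519 (183 bases) had 1.24 in cortex column 2 and 0 elsewhere.

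The tissue labels were checked on transcripts of other classes that overlap or lie antisense to marker genes, since none of the marker names was among the reference-matching ones. For liver 4 of 10 names were found, with a summed mean of 20.1 FPKM in liver and at most 1.29 elsewhere, although the Fga transcript was listed at 0 in liver. Of 9 kidney names 1 was found, Slc12a1, a salt transporter of the kidney. The overlapping transcript had 36.6 in outer medulla and 13.5 in cortex and at most 0.824 elsewhere. Of 9 adrenal gland names 1 was found, Cyp11b3, with the values given above. Of 12 hypothalamus names 2 were found, Sox2 and Dlx6, which summed to 6.46 in hypothalamus and at most 0.563 elsewhere. Oxt, Avp, Pomc and Agrp were on that list and were not found. None of the 8 left ventricle names was found, so that label was not checked.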

How the data were processed

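TRIzol extraction and a TruSeq Stranded RNA LT library kit are named, per the labels' protocols. The genome build rn5 and bcl2fastq 2.15.0 come from the submitters' processing notes. The sources used here do not name the aligner, annotation, strand setting or lncRNA criteria. The authors deposited FPKM per transcript, with a header laid out like that of Cufflinks tracking output, per the file headers. The deposited length of each transcript is in bases.

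Of 2458 rows, 3 without values were left out. Depth was implied from the steps between low FPKM values of transcripts over 500 bases alone at their interval. A trend fit with limma 3.58.1 in R 4.3.3 used log2(FPKM + 0.1) of the 12 columns and every transcript of the table whose mean reached 1 FPKM (in any tissue, or in outer medulla or cortex), with Benjamini-Hochberg adjustment over all of them. The added 0.1 shrinks changes of low transcripts. On simulated data with 1269 transcripts, the test for restriction recovered 0, 35.2 and 73.5% of 2-, 4- and 8-fold changes, with 2 of 88 calls false, and, with 604 transcripts, that between outer medulla and cortex 32.6, 62 and 80.7%, with 5 of 131 false. The remaining steps ran in Python 3.11.15 (NumPy 2.4.6, SciPy 1.17.1, pandas 2.3.3).

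The alternatives (other minimums, pseudocounts, scalings, left-out columns) are given at the end. Named transcripts are the 3 highest and up to 3 restricted ones per tissue, the 5 lowest in tau, the 3 longest and shortest, and those with symbols. The members and lists were chosen with earlier results of these data known. No sequence is shown, because the sequences at hand are of another build and match 1 of 230 names.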

Additional observations from a re-analysis of the deposited data

How the results depend on the processing

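Depth limits what a listed 0 can show, since it allows an FPKM of 2.19 at 486 bases in liver column 2. Counts of detected transcripts, ordered as liver, cortex, outer medulla, left ventricle, then adrenal gland and hypothalamus, were 24, 20, 18, 21, 23 and 8 at an FPKM of 1, 89, 85, 90, 94, 99 and 66 at 0.1, and 102, 106, 121, 109, 129 and 110 above 0. Required in both columns, they were 27 in liver, 24 in outer medulla and 24 in left ventricle. With 10 implied fragments, chosen after the data were seen, they were 21, 24 and 21 in those tissues. Rescaling the columns to the same median shifted hypothalamus by 0.85 and 0.92 and the other columns by -0.41 to 0.12 (log2), and gave 32 in hypothalamus, 31 in cortex and 29 in outer medulla. Leaving out 1 column gave 42 in liver, 34 in cortex, 33 to 38 in outer medulla, 38 in left ventricle, 39 to 42 in adrenal gland and 18 to 21 in hypothalamus.

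Transcripts detected in no tissue numbered 71 at 0.1 and 50 above 0 (155 to 163 without 1 column). Those in 1 tissue numbered 49, 36 and, with 10 fragments, 9 (17 to 26 without 1 column). Those in all 6 numbered 6 at an FPKM of 1, 37 at 0.1 and 55 above 0 (10 to 12). Broad transcripts numbered 12 at an FPKM of 0.5, 3 at 2, and 13 with 10 fragments in every tissue (5 to 7). The median tau was 0.91 on log2(FPKM + 0.1) set to 0 below 0, and 0.53 to 0.60 without 1 column. 

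Restricted transcripts numbered 9 of 44 with a pseudocount of 1. With no FPKM minimum they numbered 11, with more than 44 tested, and the number also moved without 1 column. The 5-fold rules, with no test, gave 2 on the mean (35.9% of all tested) and 2 in both columns (20.4%), namely TCONS_00037942 and TCONS_00110319 under both. TCONS_00037942 and TCONS_00026386 kept their calls in every fit run. A replicate block on the column number gave 6 of 44, the 4 and also TCONS_00100492 in liver (adjusted p = 0.0218, limma) and TCONS_00031452 in left ventricle (0.0441). The labels pair no columns, and deviations of same-numbered columns correlated between -0.07 and 0.13 over 15 tissue pairs. Between outer medulla and cortex, 1 transcript passed with a pseudocount of 1, 1 with no minimum (where more were tested) and 1 with rescaled columns. The 5-fold rule on the mean gave 1, and the fit with only those columns gave 2. The number also moved in some fits without 1 column. A fit with 1 column left in a tissue assumes that it varies like the others. The causes were not tested.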
